A study of Mus musculus with 22 samples.

Results

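The genes described here are Bola3, Wdr85, Zmynd19, Def8, Rdm1 and E130311K13Rik, 6 of 37273 genes annotated on the assembled mouse chromosomes. They were picked by symbol from an earlier comparison of the same peak lists, as loci whose promoter held a weaker place among the RNA polymerase II (PolII) peaks after removal of CTCF. Each gene was described from the PolII peaks that overlap it or lie within 50 kb of its transcription start site (TSS), with peaks over the TSS, peaks in the gene body and peaks at neighbouring genes kept apart. All 6 TSSs lay in a region that had a peak in each of the 14 libraries taken after mitosis, so all 6 passed the requirement of detection that 15784 of 169903 regions of the series met.

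PolII chromatin immunoprecipitation was sequenced in G1E-ER4 cells, a mouse erythroblast line of GATA1-null origin. According to the paper, this line can be induced to terminal erythroid differentiation. In all groups both Ctcf alleles carry an auxin-inducible degron and mCherry, and the plant F-box protein OsTiR is expressed from a retroviral vector. Cells of every group were arrested in prometaphase with 200 ng/ml nocodazole and taken without release, as prometaphase cells, or released for 60 min to reach early-G1, for 120 min to reach mid-G1, and for 240 min to reach late-G1. Treated cells received auxin from the last part of the arrest onwards, and control cells had the same arrest without auxin. The cells were then sorted on DNA content and, in prometaphase, on a mitotic phosphorylation mark, and control and treated cells were gated as mCherry-positive and mCherry-negative. Of the 22 samples, 18 were PolII libraries with a peak list. Mid-G1 had 3 control and 3 treated libraries, and each of the other stages had 2 of either kind.

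CTCF is a zinc-finger protein that binds DNA at a long recognition motif, halts cohesin-driven loop extrusion at many of its sites, and also binds close to the start of a subset of genes. PolII leaves most promoters during mitosis and returns as cells enter G1, when it gathers just downstream of active starts before elongating through the gene. Auxin removes the CTCF protein and not its transcript, so a PolII peak at Ctcf gives no check of the treatment.

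Post-mitotic lists held 50594 to 117125 peaks and prometaphase lists 2414 to 3918. The lowest background level of a list was used as a rough measure of sequencing depth. It ran from 0.735 fragments in control replicate 1 of mid-G1, the shallowest library by this measure, to 2.14 fragments. The read totals given by the paper do not follow it in every library. Of 10 erythroid progenitor markers, 7 had a TSS peak in all 14 post-mitotic libraries, Lmo2 had one in 13 and Zfpm1 in 12, whereas the adult globin gene Hba-a1 had none. None of 8 markers of other lineages had a TSS peak in any library.

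The values below use a few measures. Each library's regions were put in order of their best fold enrichment over the local background, and rank 1 is the strongest. A difference is given on the −log2 rank scale, on which a rank number multiplied by 2 is a step of 1 and negative auxin differences mean a weaker place after auxin. The pileup is the whole number of overlapping fragments at a summit, and the local background is the number expected there. Both were recovered from the fold enrichment and the p-value of the peak. Ranks cannot show a change that all regions share, and fewer cells with PolII at a gene cannot be told apart from less PolII per cell.

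The DNA of 2 of these genes holds an exact match to a short CTCF core of 12 bases within 500 bp of the TSS. The core searched for, on both strands, has 8 fixed letters: CCA, 2 free bases, AG, 2 free bases and GGC. The same holds for 7.21% of 22339 protein-coding starts. These sites are shown because they lie beside the PolII summits described below. Each is printed in the orientation of its gene in mm9 with the match in capitals, and at Def8 the motif reads on the opposite strand.
Def8, chr8:125967117-125967146, plus strand: ctcccggctGCCGCCTGCTGGctctccgct
E130311K13Rik, chr3:63733312-63733341, minus strand: ccctaccgcCCACCAGGGGGCgcccgcaag
The Def8 match began 240 bp after the TSS, in an intron, and that of E130311K13Rik 62 bp after the TSS, in the 5′ untranslated region. The other 4 genes had no exact match in the same window. With 1 mismatch allowed, Wdr85 had 5 matches, Def8 3 and Rdm1 1, but 68.9% of all protein-coding starts then held at least 1. A match of these letters is a description of the sequence, and CTCF binding was not measured here.

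Wdr85 and Zmynd19 stand in tandem on the plus strand of chromosome 2, and the Wdr85 TSS follows the annotated end of Zmynd19. The 250 bases before each TSS and before that of Def8 are shown because these promoters gave different PolII values, with single-mismatch matches to the core in capitals.
Wdr85, chr2:24817670-24817919, plus strand: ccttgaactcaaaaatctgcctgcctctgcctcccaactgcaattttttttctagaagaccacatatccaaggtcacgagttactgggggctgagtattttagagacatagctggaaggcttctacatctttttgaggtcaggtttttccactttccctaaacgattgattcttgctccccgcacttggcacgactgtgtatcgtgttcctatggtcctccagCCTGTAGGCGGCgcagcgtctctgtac
Zmynd19, chr2:24805062-24805311, plus strand: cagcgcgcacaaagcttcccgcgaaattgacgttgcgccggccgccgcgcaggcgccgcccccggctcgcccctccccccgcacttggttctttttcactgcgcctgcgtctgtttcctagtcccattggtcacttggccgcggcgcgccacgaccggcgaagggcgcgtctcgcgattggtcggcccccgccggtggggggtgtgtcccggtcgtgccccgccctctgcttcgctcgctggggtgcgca
Def8, chr8:125966636-125966885, plus strand: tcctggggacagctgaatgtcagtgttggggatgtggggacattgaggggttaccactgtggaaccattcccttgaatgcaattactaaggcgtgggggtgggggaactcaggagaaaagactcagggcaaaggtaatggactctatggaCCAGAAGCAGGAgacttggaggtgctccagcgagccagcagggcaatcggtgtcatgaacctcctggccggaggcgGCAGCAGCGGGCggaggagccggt
Zmynd19 had 37 CpG dinucleotides in these 250 bases and a GC content of 72.0%, with fewer CpGs in 97.5% of protein-coding promoters. Wdr85 and Def8 had 8 each, the median over 22334 promoters, Rdm1 had 14, Bola3 4 and E130311K13Rik 3. The share of promoters with fewer CpGs thus ran from 24.5% for E130311K13Rik to 97.5%.

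Across the 14 post-mitotic libraries, the ranks of control and treated libraries did not overlap at Bola3, Wdr85, Def8 and E130311K13Rik, and all treated libraries were the weaker ones. Among all regions tested, 0.203% showed this pattern. Ranks overlapped at Rdm1 and Zmynd19. On average over the 3 stages, 5 of the 6 regions lay among those called weaker after auxin, a call that 0.336% of the regions met. The genes were chosen from this contrast, so nothing is read from either count and the auxin differences are given with no test. At Zmynd19 the data went against the description of the set: its own promoter was not weaker, and the change near its symbol belonged to the region of Wdr85, which reaches into the Zmynd19 gene.

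**Figure D1:**
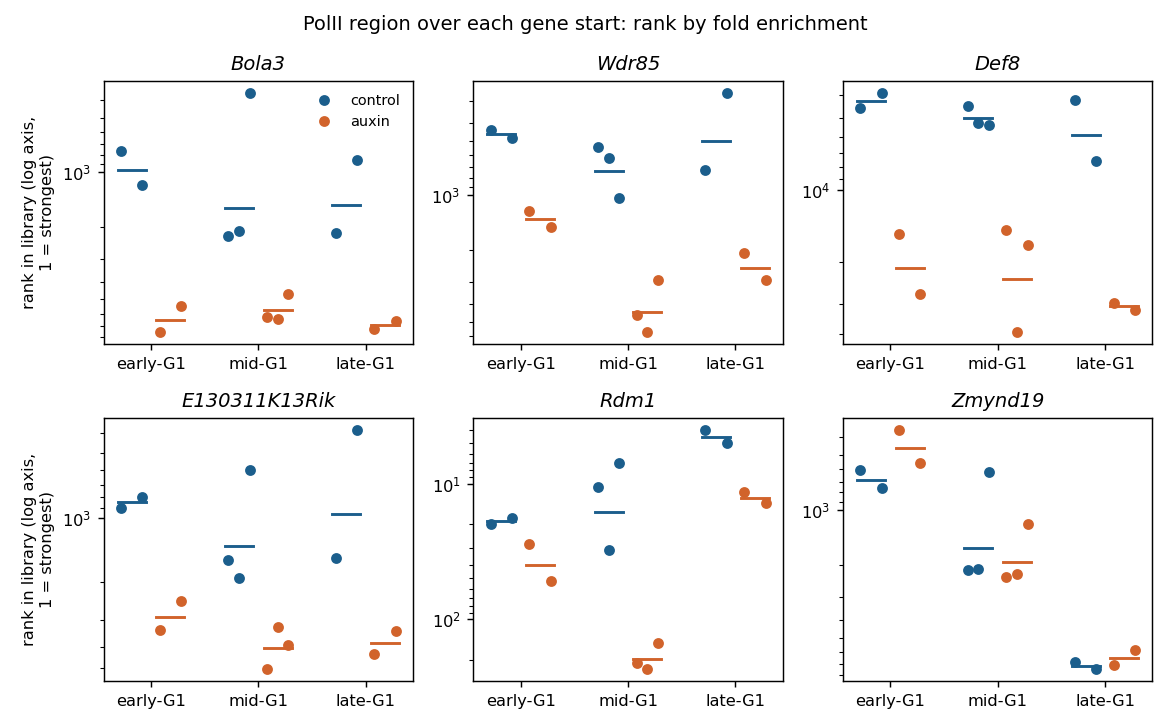
Rank of the PolII region over each gene start (vertical log axis, strongest at the top) in early-G1, mid-G1 and late-G1, with 1 point per library and a line at the mean rank of each group of 2 or 3 libraries. Control (blue) and treated (orange) points are fully apart at Bola3, Wdr85, Def8 and E130311K13Rik and overlap at Rdm1 and Zmynd19 when the stages are pooled.

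Def8, which encodes a protein that takes part in positioning lysosomes within the cell, lies at chr8:125966886-125987170 on the plus strand, inside the much longer annotated model Gm20388. The region over its TSS, chr8:125966713-125967463, was 751 bp wide. In control libraries it ranked 4537 and 3910 in early-G1, 4417, 5247 and 5305 in mid-G1, and 4191 and 7562 in late-G1. In treated libraries it ranked 15216 and 27364.5 in early-G1, 14669.5, 39439 and 16905 in mid-G1, and 29746.5 and 31665.5 in late-G1. The weakest control library was thus still stronger than the strongest treated library. The difference was −2.28 ± 0.24 (SE) over the stages, with −2.28 in early-G1, −2.10 in mid-G1 and −2.45 in late-G1.

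Def8 was the only one of the 6 genes at which fold enrichment, pileup and width of the TSS peak also separated the 2 conditions in all libraries. These measures follow the contrast that chose the genes. The share of all regions with such a separation was not counted, so nothing is read from it. Its fold enrichment averaged 19.7 ± 3.64 without auxin and 6.31 ± 1.61 with it (SD over 7 libraries each). The pileup was 27 to 75 fragments in control libraries, with a median of 59, and 10 to 22 with a median of 14 after auxin. Divided by the lowest background of each library, a rough correction for depth, the pileup ran from 29.0 to 45.5 in control and from 7.14 to 16.6 in treated libraries. The shallow control library had the lowest control pileup, and it was still above all treated ones.

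The Def8 peak also changed its extent. It began 50 to 173 bp before the annotated TSS in the 7 control libraries and 71 to 218 bp after it in the 7 treated libraries. The TSS base itself was therefore inside a peak in 7 of 7 control and 0 of 7 treated libraries. Within 250 bp of the TSS, peaks covered 67.6% ± 8.30 of the bases in control and 28.9% ± 10.2 in treated libraries (SD, n = 7 each). A called peak ends where its signal falls below the caller's threshold, so a weaker peak can be shorter for that reason alone. Edges and coverage are thus not separate from the lower pileup at Def8. The far edge differed less, 497 to 577 bp after the TSS in control and 315 to 534 bp in treated libraries. Summits lay 160 to 248 bp after the TSS in control libraries and 200 to 341 bp after it in treated libraries. The printed CTCF core match begins 240 bp after the TSS. Of the control summits none lay past the match, and 1, at 248 bp, lay within it. Treated summits at 259, 276, 305 and 341 bp lay past it, and those at 200, 211 and 213 bp lay before it. The treated summits rest on 10 to 22 fragments, so their places are imprecise. A link between the summits and the match was not tested.

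**Figure D2:**
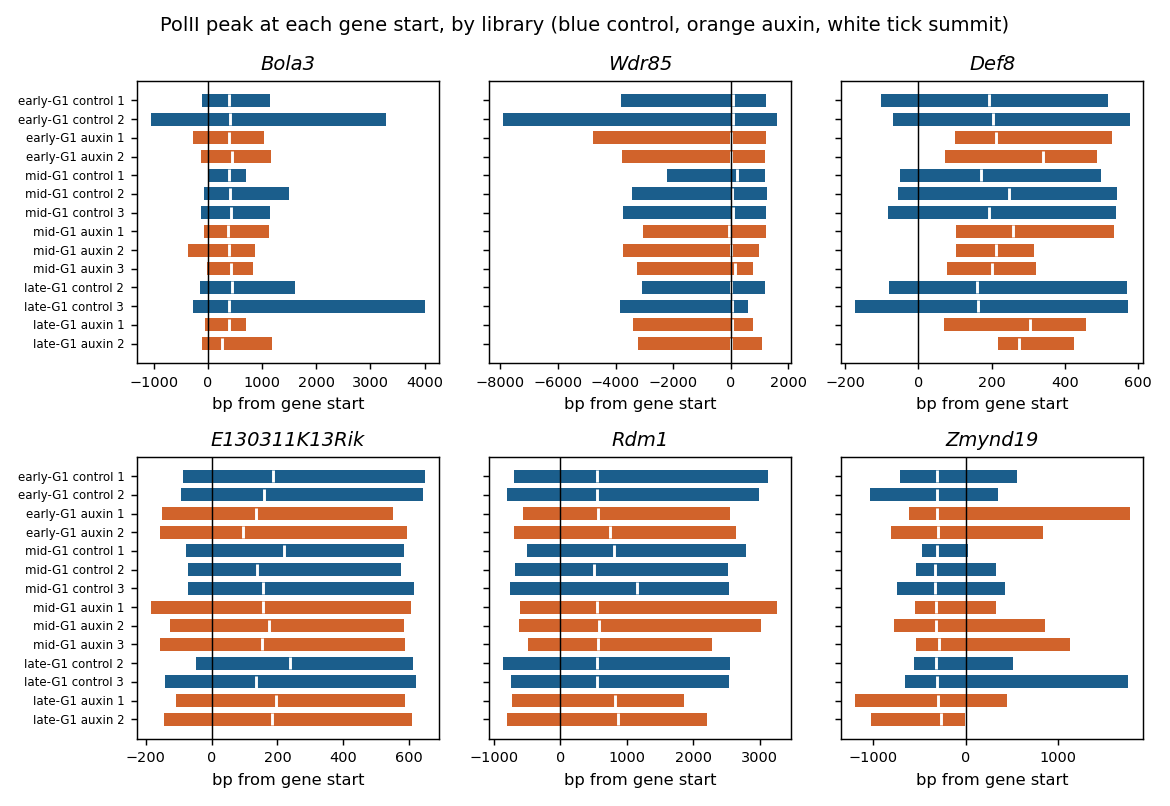
Extent of the TSS peak of each gene in the 14 post-mitotic libraries, as bars in bp from the gene start (black line) in the direction of transcription, with a white tick at the summit. At Def8 the 7 control bars (blue) cross the start and the 7 treated bars (orange) begin downstream of it. At the other genes the start lies within or beside both sets of bars, and at Bola3 the control bars are 676 to 4349 bp long and the treated bars 752 to 1312 bp.

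Regions in the body of Def8 went in both directions. The one at chr8:125974471-125975066 was detected in all 14 libraries and differed by 0.62 ± 0.27 (SE), towards a stronger place after auxin. It was weak, with mean ranks of 35346 ± 17647 in control and 23306 ± 14404 in treated libraries (SD, n = 7 each). The other body regions were not tested. That at chr8:125985670-125988580, across the gene end, had a peak in 7 control and 6 treated libraries, at mean ranks of 20180.5 and 29316.2. The region at chr8:125984816-125985242 had one in 3 and 0. Beyond the first 500 bp of the gene, peaks covered 9.01% ± 4.85 of the bases in control and 3.26% ± 1.51 in treated libraries (SD, n = 7 each), ranges that overlapped. Gm20388 spans the same bases, and lists of peaks do not separate the 2 gene models.

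Bola3, a mitochondrial protein needed to pass iron-sulfur clusters to enzymes such as lipoate synthase, lies at chr6:83299141-83310130 on the plus strand. Its TSS region, chr6:83297303-83303153, ranked 766.5 and 1172 in early-G1 control, 2239, 2105.5 and 366.5 in mid-G1 control, and 2159 and 851 in late-G1 control libraries. After auxin it ranked 7577 and 5417.5 in early-G1, 6215, 6368 and 4661 in mid-G1, and 7313.5 and 6575.5 in late-G1. The difference of −2.45 ± 0.36 (SE) was the largest of the 6 in ranks by fold enrichment, though not in ranks by pileup, and it was −2.76, −2.25 and −2.36 in early-G1, mid-G1 and late-G1.

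The Bola3 pileup was 31 to 156 fragments in control libraries (median 105) and 34 to 52 in treated libraries (median 42). These raw values overlapped because the shallow control library of mid-G1 had 31 fragments. Over the lowest background of each library the pileup was 58.6 ± 20.6 in control and 29.7 ± 4.55 in treated libraries (SD, n = 7 each), with no overlap. The local background at the summit was within 1% of the lowest background of the library in all 14, so the fold enrichment followed the pileup. Peak width was 676 to 4349 bp in control and 752 to 1312 bp after auxin, and the summit stayed 267 to 456 bp after the TSS, in coding sequence in the middle library.

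Beyond its first 500 bp, peaks covered 64.2% ± 20.3 of the Bola3 gene in control and 39.9% ± 12.9 in treated libraries (SD, n = 7 each), with overlap. The region that follows, chr6:83303240-83315845, covers the end of Bola3 and the neighbouring Tet3, which encodes a methylcytosine dioxygenase. It differed by −0.53 ± 0.17 (SE). Since this region runs past the end of Bola3 and the TSS region covers the first part of the gene, neither value is one for the gene body alone.

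Wdr85, now named Dph7, encodes an enzyme of diphthamide synthesis, the modification of elongation factor 2 that diphtheria toxin attacks, and lies at chr2:24817920-24827683 on the plus strand. The region over its TSS, chr2:24807311-24819536, was 12226 bp wide and reached back into Zmynd19. In control libraries it ranked 437.5 and 483.5 in early-G1, 542, 619.5 and 1030.5 in mid-G1, and 726.5 and 272 in late-G1. In treated libraries it ranked 1217 and 1487 in early-G1, 4602, 5700.5 and 2950.5 in mid-G1, and 2077.5 and 2932.5 in late-G1. All treated ranks were weaker than all control ranks, and the difference was −2.21 ± 0.25 (SE).

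Its TSS peak had pileups of 53 to 191 fragments (median 122) in control and 54 to 93 (median 82) in treated libraries. Ranked by pileup in place of fold enrichment, the region still had no overlap, at 445.5 to 964 in control and 1497 to 3484.5 in treated libraries. Over the lowest background of each library, however, the pileup overlapped, at 74.2 ± 12.7 in control and 55.8 ± 12.2 after auxin (SD, n = 7 each), and in early-G1 the means were 75.5 and 69.4. In mid-G1 the local background was 1.24 times the lowest background of the library in control and 1.72 times in treated libraries (means, n = 3 each). The part of that background in the mid-G1 difference of −2.60 was not tested. Summits stayed between 74 bp before and 212 bp after the TSS, close to the printed single-mismatch match that begins 27 bp before it.

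Downstream of the Wdr85 promoter, peaks covered 36.1% ± 15.6 of the gene beyond its first 500 bp in control and 17.8% ± 7.42 in treated libraries (SD, n = 7 each), with overlap. Small regions inside the gene were found mostly in control libraries: the one at chr2:24823415-24825242 had a peak in 5 control and 1 treated libraries, and that at chr2:24821975-24822467 in 3 and 0. The region at the end of Wdr85, chr2:24825351-24833011, which also holds the starts of Mrpl41 (a mitochondrial ribosomal protein) and Pnpla7 (a lysophospholipase), differed by −0.30 ± 0.19 (SE). The difference at the TSS region was therefore not found at the next promoters on that side.

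Zmynd19, a MYND zinc-finger gene, lies at chr2:24805312-24817595 on the plus strand and has its own TSS region, chr2:24803999-24807198. It ranked 606 and 762.5 in early-G1 control, 2129, 2105.5 and 619.5 in mid-G1 control, and 6806 and 7413 in late-G1 control libraries. After auxin it ranked 364 and 550.5 in early-G1, 2338, 2251.5 and 1195 in mid-G1, and 7081 and 5825 in late-G1. The conditions overlapped in mid-G1 and late-G1, and in early-G1 both treated libraries were the stronger ones. The difference was 0.12 ± 0.28 (SE) over the stages and 0.60, −0.39 and 0.15 in early-G1, mid-G1 and late-G1, so its sign was not stable. Its pileup was 32 to 133 fragments in control and 56 to 128 in treated libraries. Its summits lay 264 to 335 bp before the annotated TSS in all 14 libraries.

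E130311K13Rik lies at chr3:63718606-63733394 on the minus strand, and its TSS region, chr3:63732745-63733579, was 835 bp wide. It ranked 896 and 798 in early-G1 control, 1568.5, 1906 and 595 in mid-G1 control, and 1532.5 and 388 in late-G1 control libraries. After auxin it ranked 3349 and 2445.5 in early-G1, 5065.5, 3213.5 and 3915.5 in mid-G1, and 4326.5 and 3362.5 in late-G1. The ranks did not overlap, with a difference of −1.93 ± 0.31 (SE) and stage values of −1.76, −1.72 and −2.31. The pileup was 37 to 180 fragments (median 101) in control and 49 to 86 (median 65) in treated libraries, which overlapped. The pileup over the lowest background of each library also overlapped, with 64.6 ± 21.0 in control and 46.4 ± 8.92 in treated libraries (SD, n = 7 each).

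Unlike at Def8, the peak did not narrow at E130311K13Rik. Its width was 698 ± 45.4 bp in control and 735 ± 33.9 bp in treated libraries (SD, n = 7 each), and 66.9% ± 5.82 of the window within 250 bp of the TSS was covered in control against 79.4% ± 4.81 after auxin. Summits lay 96 to 237 bp after the TSS, and the printed CTCF core match, which begins 62 bp after the TSS, was nearer to the TSS than all of them. In the rest of the gene peaks covered only 2.24% ± 1.81 in control and 1.20% ± 0.83 in treated libraries. In control libraries the TSS peak averaged 698 bp and other peaks of the gene 205 bp in sum, with 0 to 647 bp in single libraries.

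Rdm1, a protein with a RAD52-like motif studied in the response to DNA damage, lies at chr11:101488509-101497414 on the plus strand. Its TSS region, chr11:101487643-101492421, also holds a gene for U2, the small nuclear RNA that pairs with the branch point of introns, which starts 171 bp after the Rdm1 TSS on the same strand. Within 50 kb are 5 such U2 copies of 191 bp, and the copy in Rdm1 was identical to 3 of the others and to 190 of the 191 bases of the fourth. Of all 36-base words in the region, 5.08% recur within 5 kb of another copy. Reads of mapping quality below 10 were removed, so reads that match several copies equally well would mostly be lost. The PolII of U2 and of Rdm1 cannot be told apart here, so values for this gene are uncertain.

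The Rdm1 region ranked 20 and 18 in early-G1 control, 10.5, 31 and 7 in mid-G1 control, and 4 and 5 in late-G1 control libraries. After auxin it ranked 28 and 52 in early-G1, 209, 233 and 149 in mid-G1, and 11.5 and 14 in late-G1. Within each stage the treated libraries were the weaker ones, and mid-G1 stood out. The difference was −2.13 ± 0.29 (SE), with −1.01, −3.88 and −1.504 in early-G1, mid-G1 and late-G1.

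At Rdm1 in mid-G1 the pileups of the 2 conditions overlapped, and the local background at the summit was higher in treated libraries. Pileups in mid-G1 were 208, 298 and 282 fragments in control and 276, 283 and 276 in treated libraries. The local background was 0.735, 2.21 and 1.45 fragments in control and 3.20, 3.27 and 3.03 in treated libraries. This is 1.00 to 1.21 and 1.97 to 2.41 times the lowest background of the library. The summits lay 810, 500 and 1155 bp after the TSS in these control libraries and 552, 577 and 568 bp after it in the treated ones. The local background is that at the summit, and the part of the summit's place in it was not tested. Ranked by pileup, the 3 control libraries of mid-G1 placed the region at 21.5, 26 and 19, and the 3 treated libraries at 25, 28 and 24.5, which overlap. By that rank the difference at Rdm1 was −0.46 over the stages. It was −2.22 at Bola3, −1.89 at Wdr85, −2.37 at Def8, −1.77 at E130311K13Rik and 0.06 at Zmynd19. Ranks by pileup, like those by fold enrichment, did not overlap at Bola3, Wdr85, Def8 and E130311K13Rik. The share of all regions with this pattern by pileup was not counted, so nothing is read from it. Each stage had 1 input library, which the methods give as the control of peak calling, so the control and treated lists of mid-G1 share it. The part of the local background in the Rdm1 difference was not tested further.

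**Figure D3:**
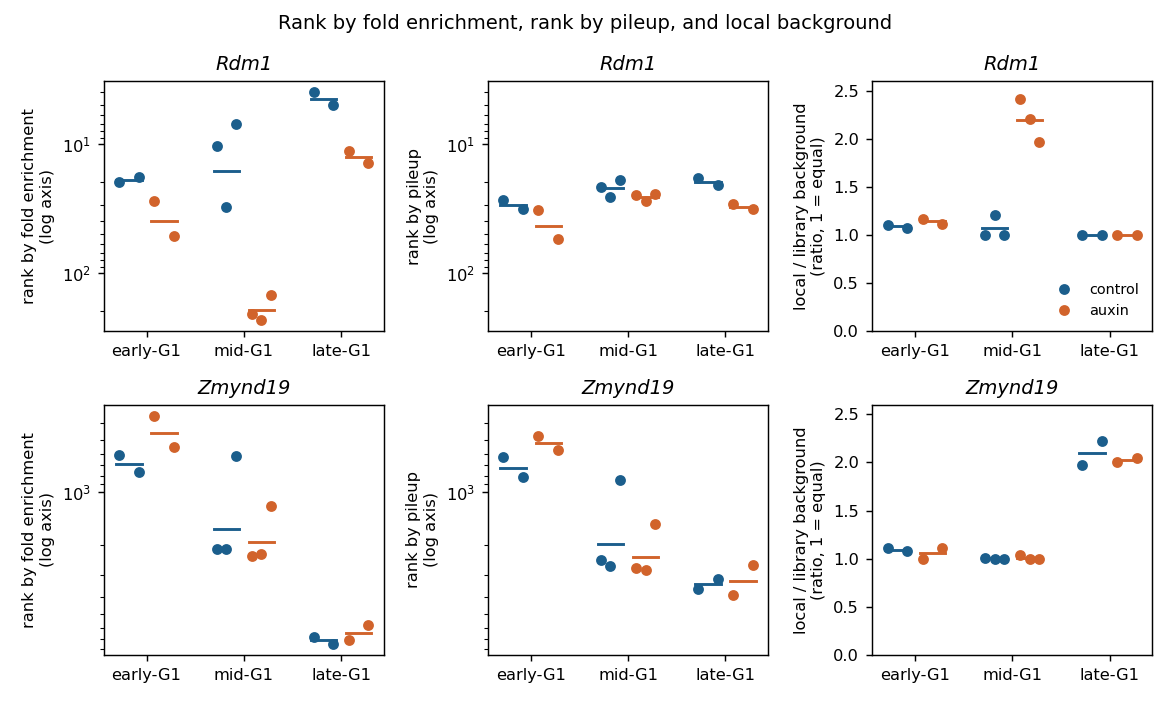
Rank by fold enrichment, rank by pileup (vertical log axes, strongest at the top) and the local background divided by the lowest background of the library (ratio) at Rdm1 and Zmynd19, with 1 point per post-mitotic library and a line at each group mean. At Rdm1 the 3 treated mid-G1 libraries (orange) have a higher local background at the summit and fall only in the rank by fold enrichment. At Zmynd19 the local background was raised in late-G1 in both conditions.

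The design also asks how each promoter changed from early-G1 to late-G1, a contrast that did not choose the genes. Zmynd19 lost rank in both conditions: late-G1 minus early-G1 was −3.39 ± 0.51 (SE) in control cells (adjusted p = 0.00396) and −3.84 ± 0.51 in treated cells (adjusted p = 0.00167), with limma and Benjamini-Hochberg adjustment over all regions. Rdm1 gained rank in control cells by 2.08 ± 0.53 (SE; adjusted p = 0.0400), and in treated cells the value was 1.59 ± 0.53 (adjusted p = 0.101). The other 4 genes had differences from −0.88 to 0.13 in either condition, and none passed (lowest adjusted p = 0.295). Of all regions, 1.88% were called lower and 1.91% higher in control cells, 3.78% in either direction. In treated cells the shares were 2.24%, 2.36% and 4.6%.

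Beside the fall of Zmynd19, its local background was 3.48 and 4.76 fragments in control and 2.84 and 2.87 in treated libraries of late-G1, against 1.59, 2.30, 1.26 and 1.54 in early-G1. Its pileup was 64 and 120 fragments in control and 56 and 61 in treated libraries of late-G1, against 119, 133, 128 and 124 in early-G1. Ranked by pileup it still fell, by 2.24 in control cells (adjusted p = 0.0286) and by 2.61 in treated cells (adjusted p = 0.00991). The part of the local background in the remainder was not tested. The gain of Rdm1 did not pass when ranked by pileup (0.59, adjusted p = 0.283), nor when any 1 of the 4 control libraries of early-G1 or late-G1 was left out (adjusted p from 0.0874 to 0.177). It also missed the threshold without replicate 1 or 2 of treated mid-G1 cells or of treated late-G1 cells (adjusted p from 0.0537 to 0.0552).

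The auxin difference was also compared between the stages, with an F test over the 3 stages. No region passed after adjustment, of 15784 tested, and 783 had an unadjusted p under 0.05 (4.96%). Rdm1 had the lowest unadjusted p of the 6 genes, 0.00121 (adjusted p = 0.830), and the local background given above differed in the same stage. For Wdr85 the unadjusted p was 0.204 and for the other 4 genes it ran from 0.339 to 0.835.

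In prometaphase, which did not choose the genes, PolII at these promoters was mostly not detected. The same held for most of the series: of 169903 regions, 1480 to 2399 had a peak in a prometaphase library. Nothing particular to these genes is therefore read from a missing peak. Rdm1 had a TSS peak in all 4 libraries, with ranks of 29 and 24 without auxin, 19 and 22 with auxin, and pileups of 82 to 91 fragments. Since this region also holds the U2 gene, the signal cannot be assigned to Rdm1. E130311K13Rik had a TSS peak in 1 control library, with a pileup of 10 fragments and a rank of 1871.5. Bola3, Def8, Wdr85 and Zmynd19 had none, although the region of Wdr85 was detected in 1 control and 1 treated library through peaks more than 250 bp from the TSS. With lists of 2414 to 3918 peaks, PolII below the caller's threshold would not be seen, and 2 libraries against 2 allow no exact test with p under 0.05.

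Around the 6 genes, 187 regions lay within 50 kb of a TSS and outside the genes themselves, and 22 of them were detected in all 14 libraries. The rest were not tested, so a neighbour whose peak was missing in 1 condition does not appear among the 22. Examples were chr6:83271126-83273252, with a peak in 7 control and 3 treated libraries, and chr8:125940381-125940962, in 2 and 7. None of the 22 was called lower or higher after auxin with limma (lowest adjusted p = 0.207), where 0.729% of all regions were called. By the same fit, 3 had an unadjusted p under 0.05, against 10.9% of all regions. The differences of the 22 ran from −0.77 to 0.78 with a median of −0.12, and the median over all regions was −0.01. All 3 lay upstream of Bola3 on its chromosome: one within the bicarbonate transporter gene Slc4a5 (−0.77 ± 0.24), one at the TSS of Mthfd2, which encodes a mitochondrial enzyme of folate metabolism (−0.63 ± 0.24), and one between genes (−0.40 ± 0.17). Mob1a, a Hippo pathway adaptor whose TSS lies between them, differed by 0.23 ± 0.18.

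The other neighbouring starts were not called either. Near Wdr85 and Zmynd19, the histone methyltransferase gene Ehmt1 differed by −0.17 ± 0.24 and the arrestin-domain gene Arrdc1 by 0.19 ± 0.28. Near Def8, Afg3l1, related to mitochondrial proteases, differed by −0.14 ± 0.20. Near E130311K13Rik, Gmps, which makes GMP, differed by −0.16 ± 0.25. Near Rdm1, Tmem106a differed by −0.20 ± 0.17 and the small GTPase gene Arl4d by 0.78 ± 0.39 (adjusted p = 0.485). Each other U2 copy there had its start in a separate region. These differed by −0.13 ± 0.34 at chr11:101465846-101467704 and by 0.02 ± 0.20 at chr11:101502566-101503081. At chr11:101503218-101507711 the difference was −0.32 ± 0.40, and at chr11:101518909-101522891 it was 0.59 ± 0.76. The value of Arl4d was the highest of the 22 regions. The errors are SEs of the fit. Gm13369 had a peak in 1 control and 1 treated library and Gm17548 in 6 and 7, so neither was tested.

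**Figure D4:**
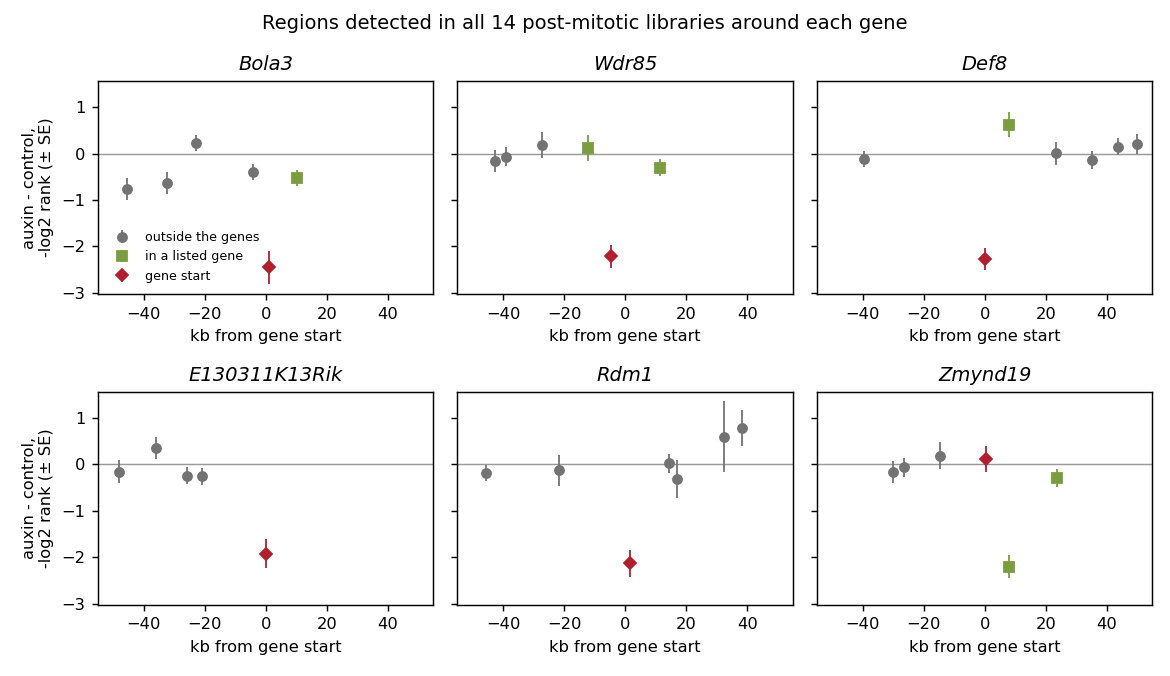
Difference in −log2 rank, treated minus control over the 3 stages, with its SE, for each region detected in all 14 post-mitotic libraries against the distance of its midpoint from the gene start in kb, in the direction of transcription. The region over the start (red) lies below −1.9 in 5 panels, regions outside the genes (grey) lie between −0.77 and 0.78, and the green point near −2.21 in the Zmynd19 panel is the region of Wdr85.

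Genes that work with these proteins were compared as lists chosen for their roles. Of 58 genes, 42 had a TSS region that could be tested, and none was called lower or higher with limma (lowest adjusted p = 0.199), while 7 had an unadjusted p under 0.05, a share to be read against 10.9% of all regions. Among 10 tested genes of iron-sulfur cluster assembly, the partners of Bola3, the median difference was 0.01. The largest were at the cysteine desulfurase gene Nfs1 (−0.72 ± 0.24, adjusted p = 0.257) and the co-chaperone gene Hscb (0.61 ± 0.24, adjusted p = 0.331). Among 5 genes of diphthamide synthesis and its target, the median was 0.08, with 0.24 ± 0.28 at Eef2, the elongation factor itself, and 0.20 ± 0.22 at the methyltransferase gene Dph5.

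For late endosomes and lysosomes, where Def8 acts, 11 genes had a median of 0.11, with 0.63 ± 0.26 at the lysosomal membrane gene Lamp2 and 0.63 ± 0.19 at Vps18, a tethering subunit (adjusted p = 0.388 and 0.199). For strand annealing and recombination repair, 12 genes had a median of −0.09, with 0.55 ± 0.26 at Rad54l and −0.40 ± 0.25 at Brca2. For MYND finger genes other than Zmynd19, 4 were tested, with a median of −0.12 and the largest values at Zmynd12 (−0.37 ± 0.20) and Smyd5 (−0.25 ± 0.20). All 42 differences lay between −0.72 and 0.63.

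**Figure D5:**
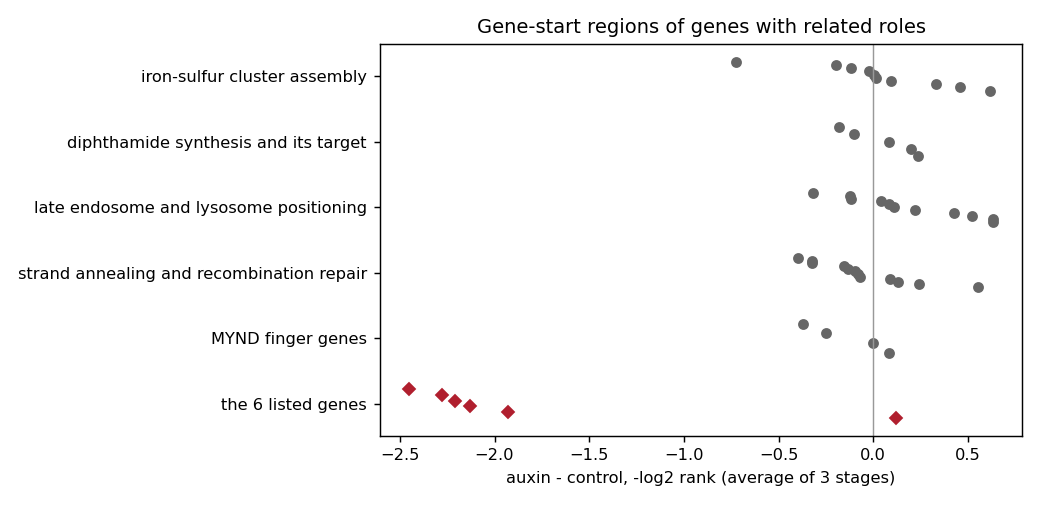
Difference in −log2 rank, treated minus control over the 3 stages, at the TSS regions of 42 genes in 5 role lists (grey) and of the 6 genes described (red), with 1 point per gene. The grey points lie between −0.72 and 0.63, and 5 of the red points lie below −1.9, from which contrast they were chosen.

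Finally, the protein-coding TSS regions whose ranks varied most like each gene over the 14 libraries were listed by Spearman correlation, as a description that depth and auxin shape together. They were Vps36 (0.90) and 9130221H12Rik (0.87) for Bola3, Trim46 (0.91) and the region shared by Lias and Rpl9 (0.90) for Wdr85, and Sgol2 (0.95) and 5730590G19Rik (0.94) for Zmynd19. For Def8 they were Vwce (0.82) and the region of Cdh24 and Gm17606 (0.82), for Rdm1 E2f8 (0.86) and Fam116b (0.85), and for E130311K13Rik Traf6 (0.90) and Syngr1 (0.88). Mean ranks of Trim46 were 5909 ± 1815 in control and 11860 ± 4844 in treated libraries, and those of Traf6 were 4300 ± 1265 and 9173 ± 2673 (SD, n = 7 each). Those of Vps36 were 3609 ± 749 and 5395 ± 977, and those of Sgol2 were 2988 ± 1820 and 3021 ± 1435. These regions were picked for following genes chosen on the auxin contrast, so nothing is read from such differences.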

How the data were processed

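PolII ChIP-seq peak lists of 18 libraries were analysed, and groups were taken from the sample titles. According to the methods and processing notes, the authors aligned reads to mm9 with Bowtie2 2.2.9, removed reads of mapping quality below 10 and duplicates with SAMtools 0.1.19, and blacklisted intervals with bedtools 2.27.1, and called peaks per library with MACS2 2.1.0 at a q-value of 0.01. Peaks were called over the input of the same stage, of which the series has 1 per stage. The deposited lists give fold enrichment (a linear ratio), −log10 p-value, −log10 q-value and an integer score, which was not used for any result.

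Peaks overlapping by 1 bp were merged. The −log2 rank of a region was fitted with limma 3.58.1 (R 4.3.3), using 6 group means over the 14 post-mitotic libraries and Benjamini-Hochberg adjustment over all regions, with calls at an adjusted p of 0.05. Whole pileups were solved from fold enrichment and p-value with a tolerance of 0.01 on −log10 p for 99.8% to 100% of the peaks of a list. They served as a rough measure of depth, since read totals were not used here, and their precision is limited by counting. TSS windows reached 250 bp to either side in GENCODE vM1, and gene bodies began 500 bp after the TSS. Sequences were read from the mm9 genome. Python 3.11.15 with numpy 2.4.6, pandas 2.3.3, scipy 1.17.1 and matplotlib 3.10.9 were used. The fit was tested on simulated data with 1 common spread for all regions. It called 36 of 50 regions shifted by −1.5 and 36 of 50 shifted by −3. Of those shifted by 1.5 and by 3 it called 48 and 50 of 50, and of 15584 unshifted regions 5. Losses were thus found less often than gains in this simulation.

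The genes and lists were chosen with earlier results of these data known, and the motif letters and pileup ranks after the lists were seen. Named neighbours have a TSS within 50 kb that a region or peak reached, and 2 genes per role list are those of largest absolute change. The replicates are described as biological. Alternatives were ranks by p-value or pileup, a normal score, −log10 q of at least 5, joining within 1 kb, TSS windows, a limma trend, a replicate block, and leaving out each library.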

Additional observations from a re-analysis of the deposited data

How the results depend on the processing

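The average auxin differences kept their sign at Bola3, Wdr85, Def8, Rdm1 and E130311K13Rik in all alternatives that gave a value. Joining peaks within 1 kb fused Zmynd19 with Wdr85 (−1.19 for both), Zmynd19 was at −0.006 on the normal score, and stricter peaks left Def8 untested. Leaving out 1 library gave −2.68 to −2.17 at Bola3, −2.44 to −1.97 at Wdr85, −2.42 to −2.13 at Def8, −2.34 to −1.98 at Rdm1, −2.26 to −1.60 at E130311K13Rik and 0.01 to 0.32 at Zmynd19. Over all regions, 53 were called weaker after auxin, against 89 by p-value, 94 by pileup, 2 on the normal score, 32 with joined peaks, 28 for TSS windows and 24 to 91 without 1 library.

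Of the 6 genes, the stage course was called at 2 in control and 1 in treated cells. Control calls fell to 1 by p-value, by pileup, for TSS windows and under the replicate block, to 0 on the normal score and with joined peaks, and lay between 1 and 2 without 1 library. Treated calls fell to 0 on the normal score, rose to 2 with joined peaks, where Zmynd19 and Wdr85 are 1 region, and lay between 1 and 2 without 1 library. The calls lost in control cells were of Rdm1, and on the normal score and with joined peaks also of Zmynd19; the cause was not tested. Stage differences that did not pass changed sign in some settings. In control cells these were Wdr85 (−0.0146 by p-value, −0.0466 on the normal score, −0.0178 under the replicate block, −0.0786 by pileup, −0.66 to 0.76 without 1 library), E130311K13Rik (−0.0382 on the normal score, −0.48 under the replicate block, −0.86 to 1.12 without 1 library), Def8 (−0.84 to 0.00716 without 1 library) and Bola3 (−1.19 to 0.16 without 1 library). In treated cells this was Bola3 (−0.36 to 0.13 without 1 library). Zmynd19 in control cells changed from −3.39 to 0.0347 with joined peaks.

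Libraries of 1 stage with the same replicate number had deviations correlated at 0.01 in early-G1 and late-G1 and at 0.10, 0.11 and 0.29 in mid-G1. The numbers were not taken to pair the samples in the fit reported. Groups of 2 libraries give mirrored deviations, so this check cannot settle whether samples were paired. With the replicate block, 73 regions were called weaker after auxin. Under the replicate block 1 role-list gene, Nfs1, was called; it was not called in the fit reported. No neighbour was called in any alternative, and no stage interaction at the 6 genes. Depth limits which regions could be tested, since each had to be detected also in the shallowest library, control replicate 1 of mid-G1 (50594 peaks).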

Other observations

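Among the 22 neighbouring regions, the start of Afg3l1, near Def8, lost rank from early-G1 to late-G1 in control cells (−2.15, adjusted p = 0.00716) and in treated cells (−2.24, adjusted p = 0.00465), by limma with Benjamini-Hochberg adjustment over all regions. A region within Slc33a1, an acetyl-CoA transporter gene near E130311K13Rik, at chr3:63755892-63762528, also lost rank (−1.47, adjusted p = 0.0234 in control cells and −1.30, adjusted p = 0.0362 in treated cells). A second region within the same gene, chr3:63752697-63755731, had values of −0.89 (adjusted p = 0.135) and −0.02 (adjusted p = 0.983). The auxin differences of these regions are not distinguishable from 0 in the fit, and the starts of Def8 and E130311K13Rik themselves passed no test of the stage course.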
